A study of Mus musculus with 41 samples.

Results

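The 9 posterior genes of the mouse HoxA and HoxD clusters were followed through the region lists of 6 histone modifications in embryonic cartilage cells. The genes were taken by name, Hoxa9, Hoxa10, Hoxa11 and Hoxa13 on chromosome 6 and Hoxd9, Hoxd10, Hoxd11, Hoxd12 and Hoxd13 on chromosome 2, 9 of the 21887 protein-coding genes in the reference table. For each gene the promoter window (the annotated start with 2 kb on each side) and the gene body were read, and for each pair of neighbours the space between them. The acetylated regions in the gene deserts beside HoxD were read to a distance of 800 kb. The measure throughout is the covered percent, the share of a window's base pairs that lies inside the called regions of a library.

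Chromatin immunoprecipitation with sequencing had been carried out on chondrocytes, the cells of cartilage, isolated by flow cytometry with low-input kits. Proliferating chondrocytes (PC) came from embryos at E13.5 with the transgene Tg(Col2a1-cre)1Star, in which the Col2a1 promoter of early chondrocytes drives Cre. Hypertrophic chondrocytes (HC), the enlarged cells that follow them in the growth plate, came from embryos at E15.5 with the transgene Tg(Col10a1-cre)1427Vdm, in which the Col10a1 promoter drives Cre. Both carried the reporter Gt(ROSA)26Sortm1(EYFP)Cos, which turns on yellow fluorescent protein after Cre has acted. Cell type, age and transgene therefore changed together, and their shares in a difference cannot be told apart. Each mark had 3 PC and 2 HC libraries, 30 in all, and 11 IgG samples of the series were not analysed here. Separate litters or pools are not named for libraries of one group, so each p-value reflects library-to-library spread that could be purely technical.

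The lists hold coordinates without scores, so the sequencing depth is unknown, and a longer list can cover more of any window. The H3K27ac lists ran from 46.1 Mb in HC replicate 5 to 98.4 Mb in PC replicate 3, and the H3K4me3 lists from 30.3 Mb in PC replicate 7 to 46.7 Mb in PC replicate 2. The HC libraries H3K27ac replicate 5 and H3K27me3 replicate 3 carry an R in their titles that the labels do not explain. At least 200 bp of H3K4me3 was found at the promoters of 8 of 10 fixed chondrocyte markers in all PC libraries and of 7 of 10 in both HC libraries, with Sox5 at 0 in all 5. The covered percents of these 10 markers for H3K27ac, added up per library, were 686 to 730 in PC and 389 to 521 in HC. The hypertrophic markers Ibsp and Mmp13 were at 0 for H3K4me3 and H3K27ac in every library. The same sum over 8 hypertrophic markers was 172 to 247 in PC and 29.99 to 41.2 in HC, against the label. The same sum over 6 muscle markers was 8.35 to 24.99 in PC and 64.7 to 191 in HC, with no marker at 0 throughout. For 7 epidermal markers it was 20.8 to 65.8 in PC and 75.8 to 106 in HC, with Krt14 and Krt15 at 0 in all 5. Their part in the results below was not tested.

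Hox genes encode homeodomain transcription factors and lie in clusters in the order in which they are used along the body and limb axes. The posterior genes of HoxA and HoxD specify the segments of the limb, those of group 10 acting in the upper arm and thigh, those of group 11 in the forearm and shank and those of group 13 in the hand and foot. Genes of group 9 help to place the limb and start its outgrowth. Polycomb complexes keep unused Hox genes silent and deposit H3K27me3. H3K4me3, H3K9ac and H3K27ac mark active promoters, H3K36me3 marks transcribed gene bodies and H3K9me3 marks heterochromatin. In the limb, the HoxD genes are driven by enhancers spread over the gene deserts on both sides of the cluster.

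Promoter sequences show how differently these starts are built, and the 5 printed here belong to the genes that the results turn on. They are RefSeq sequences of build GRCm38.p6, from 250 bases before to 50 after the listed start, written 5′ to 3′ with each CpG dinucleotide in capitals. All 9 genes matched the promoter table, Hoxa10 and Hoxd11 with a second start each. Hoxa9 showed the fullest active marking and Hoxa13 the densest CpG, and Hoxd9, Hoxd10 and Hoxd12 are the genes called under at least 1 alternative setting.
Hoxa9, chr6:52227321-52227620, minus strand: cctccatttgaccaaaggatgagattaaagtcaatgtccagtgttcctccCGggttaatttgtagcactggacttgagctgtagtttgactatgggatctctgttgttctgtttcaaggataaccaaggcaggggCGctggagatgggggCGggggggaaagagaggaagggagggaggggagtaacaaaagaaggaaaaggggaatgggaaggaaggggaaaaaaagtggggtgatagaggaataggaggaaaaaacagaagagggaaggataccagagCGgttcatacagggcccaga
Hoxa13, chr6:52260831-52261130, minus strand: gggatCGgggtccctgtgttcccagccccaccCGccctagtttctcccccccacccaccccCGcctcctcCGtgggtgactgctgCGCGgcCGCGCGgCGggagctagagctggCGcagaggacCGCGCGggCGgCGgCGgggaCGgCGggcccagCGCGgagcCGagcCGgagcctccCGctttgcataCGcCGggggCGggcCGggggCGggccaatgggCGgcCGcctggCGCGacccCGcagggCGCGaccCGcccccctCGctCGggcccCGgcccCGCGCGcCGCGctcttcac
Hoxd9, chr2:74697513-74697812, plus strand: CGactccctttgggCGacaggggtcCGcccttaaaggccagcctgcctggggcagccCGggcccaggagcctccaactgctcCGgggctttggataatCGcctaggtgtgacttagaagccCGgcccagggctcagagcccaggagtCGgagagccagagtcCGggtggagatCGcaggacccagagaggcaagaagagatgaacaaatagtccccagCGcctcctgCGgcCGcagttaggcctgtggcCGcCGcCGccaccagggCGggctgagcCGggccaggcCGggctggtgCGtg
Hoxd10, chr2:74691641-74691940, plus strand: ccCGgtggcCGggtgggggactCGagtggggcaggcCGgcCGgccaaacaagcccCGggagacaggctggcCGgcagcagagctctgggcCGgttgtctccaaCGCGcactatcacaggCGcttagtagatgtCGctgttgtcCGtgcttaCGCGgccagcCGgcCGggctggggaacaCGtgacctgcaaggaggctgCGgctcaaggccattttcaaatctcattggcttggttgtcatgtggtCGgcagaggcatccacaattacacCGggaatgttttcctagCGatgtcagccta
Hoxd12, chr2:74674763-74675062, plus strand: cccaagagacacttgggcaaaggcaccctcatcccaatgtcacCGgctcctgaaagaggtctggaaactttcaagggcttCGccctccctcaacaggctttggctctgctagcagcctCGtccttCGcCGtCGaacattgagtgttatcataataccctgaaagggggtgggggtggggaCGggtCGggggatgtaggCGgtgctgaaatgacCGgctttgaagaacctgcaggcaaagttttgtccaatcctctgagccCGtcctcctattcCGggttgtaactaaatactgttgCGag

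The Hoxa9 window held 4 CpGs and the Hoxa13 window 45, against a median of 13 over 21263 promoters of protein-coding genes. Hoxd9 held 20, Hoxd10 held 22, Hoxd12 held 13 and Hoxd13, not printed, held 37. Hoxa9 therefore had the fewest CpGs of the printed promoters, although it was the gene most fully covered by active marks. Of all promoters, 23.9% had fewer CpGs than Hoxa9 and 97.5% had fewer than Hoxa13. The GC box GGGCGG, counted on both strands, occurred 6 times at Hoxa13, 7 times at Hoxd13, 2 times at Hoxd9, 1 time at Hoxa9 and not at Hoxd10 or Hoxd12, and 46.2% of all promoters hold it. The TATA motif TATAAA was found at Hoxd13 and at the second start of Hoxa10, and in 12.6% of all promoters. Between Hoxa9 and Hoxa10 lies the microRNA gene Mir196b, whose products are shown because all 6 marks covered it completely in every library, with the seed (bases 2 to 8) in capitals. Members of the miR-196 family are known to target Hox transcripts.
mmu-miR-196b-3p, chr6:52230094-52230115, minus strand: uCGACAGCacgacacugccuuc
mmu-miR-196b-5p, chr6:52230129-52230150, minus strand: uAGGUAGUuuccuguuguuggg

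H3K27me3 covered every posterior gene without a gap. All 9 promoter windows, all 9 gene bodies and all spaces between neighbouring members lay 100% inside H3K27me3 regions in each of the 3 PC and 2 HC libraries. In HoxA a single region held all 4 genes, of 85.6, 81.6 and 76.8 kb in PC replicates 2, 6 and 8 and of 140.8 and 84.8 kb in HC replicates 2 and 3. In HoxD a single region held all 5 genes, of 80.8, 125.6 and 100 kb in PC and of 134.4 and 123.2 kb in HC. The posterior genes were inside the region each time, and its anterior edge differed between libraries. Toward the anterior genes the HoxA region ended 51.3, 60.9 and 55.3 kb from the Hoxa13 start in PC and 118 and 61.7 kb in HC, which do not overlap and differ by a single 800 bp grid step at the nearest. The HoxD region ended 48.6, 99.8 and 74.2 kb from the Hoxd13 start in PC and 105 and 89.4 kb in HC, which overlap. With every value at 100% the measure could not show a difference in the amount of H3K27me3 at these genes.

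**Figure D1:**
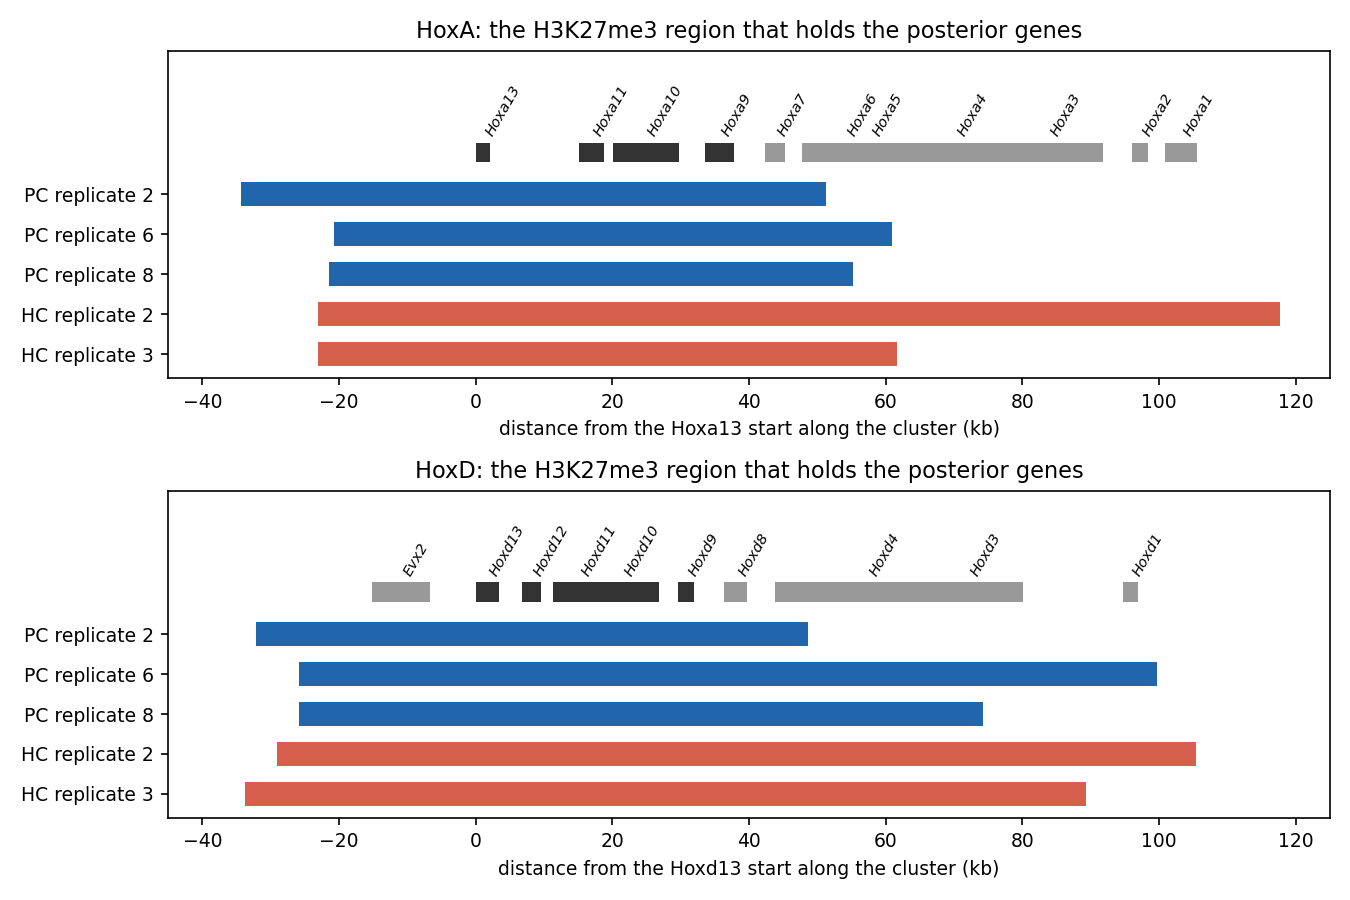
Extent of the H3K27me3 region that holds the posterior genes, 1 bar per library (blue PC, red HC), against distance in kb from the start of Hoxa13 (upper) or Hoxd13 (lower) along the cluster, with members in black and other genes in grey. The bars begin beyond the group 13 gene in every library, and the longest, HC replicate 2 of HoxA, measures 140.8 kb.

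Active marks lay inside this H3K27me3 and were fullest at Hoxa9. Its promoter was 100% covered by H3K4me3 and by H3K27ac in all 5 libraries and 95 to 100% by H3K9ac. Hoxa11, a regulator of forearm and shank, came next, with H3K4me3 over 95, 100 and 79.8% in PC replicates 1, 2 and 7 and 100 and 74.8% in HC replicates 2 and 5. Its H3K27ac was 84.8, 85.0 and 89.8% in PC replicates 3, 5 and 8 and 75 and 90.0% in HC replicates 5 and 7. Hoxa9 was above Hoxa11 for H3K27ac in 5 of 5 libraries, and Hoxa11 was above the gene next in order, Hoxd9, in 3 of 5.

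Hoxa10, which acts in the upper arm and thigh and whose window at the upstream start held less, had H3K27ac over 58.7, 58.7 and 63.7% in PC and 58.7 and 63.7% in HC. At its second start, which lies nearer Hoxa9, H3K27ac covered 80.0 to 100%. Hoxa13, a regulator of hand and foot, had 40.0, 57.0 and 40.0% in PC and 48.0 and 58.0% in HC. Hoxa10 was above Hoxa13 for both H3K27ac and H3K9ac in 5 of 5 libraries. Whether Hoxa10 was below Hoxa11 depended on the start, since the mean H3K27ac was 60.7% at its upstream start and 93.0% at the second, beside 84.9% at Hoxa11.

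In HoxD, mean H3K27ac over 5 libraries was 83.6% at Hoxd9 and 80.1% at Hoxd10, and 31.2, 35.9 and 29.9% at Hoxd11, Hoxd12 and Hoxd13. Single HC libraries broke this order. In HC replicate 7 Hoxd12 (64.7%) was above Hoxd10 (52.7%), and for H3K9ac in HC replicate 3 Hoxd10 was at 0%, below Hoxd11, Hoxd12 and Hoxd13. H3K27ac covered 84.1, 90.0 and 89.1% of the Hoxd9 window in PC and 85.0 and 70.0% in HC. At Hoxd10 it covered 95, 72.7 and 90.0% in PC and 90.0 and 52.7% in HC. Hoxd9 and Hoxd10 could not be ranked, with Hoxd9 higher in 2 of 5 libraries. At Hoxd11 the values were 18.9, 38.9 and 3.95% in PC and 85.0 and 8.95% in HC, and at Hoxd13 they were 29.99, 9.998 and 34.99% in PC and 74.4 and 0% in HC. HC replicate 5 stood above the other libraries at both genes. Without it the HC minus PC difference turned from 26.4 to -11.7 points at Hoxd11 and from 12.2 to -24.99 at Hoxd13. The second start of Hoxd11, which is richer in CpG, was 49.99 to 83.1% covered.

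H3K9ac means ran from 96.0% at Hoxa9 and 90.8% at Hoxa11 to 28.4% at Hoxd11 and 8.88% at Hoxd12, over all 5 libraries, with Hoxd10 before Hoxd9 in this order. At the body of Hoxd12, which is expressed in the developing autopod, H3K9ac was 0% in every library. In HoxD, mean H3K4me3 was 80.8% at Hoxd9 and 81.0% at Hoxd10, above the genes nearer group 13. It was 53.4% at the upstream start of Hoxd11, 59.8% at Hoxd12 and 68.2% at Hoxd13, and 85.0% at the second start of Hoxd11. PC replicate 7 held 0% at the upstream start of Hoxd11 and 4.70% at Hoxd12. That library has the shortest H3K4me3 list. In the H3K4me3 order no gene was above the next one in all 5 libraries.

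**Figure D2:**
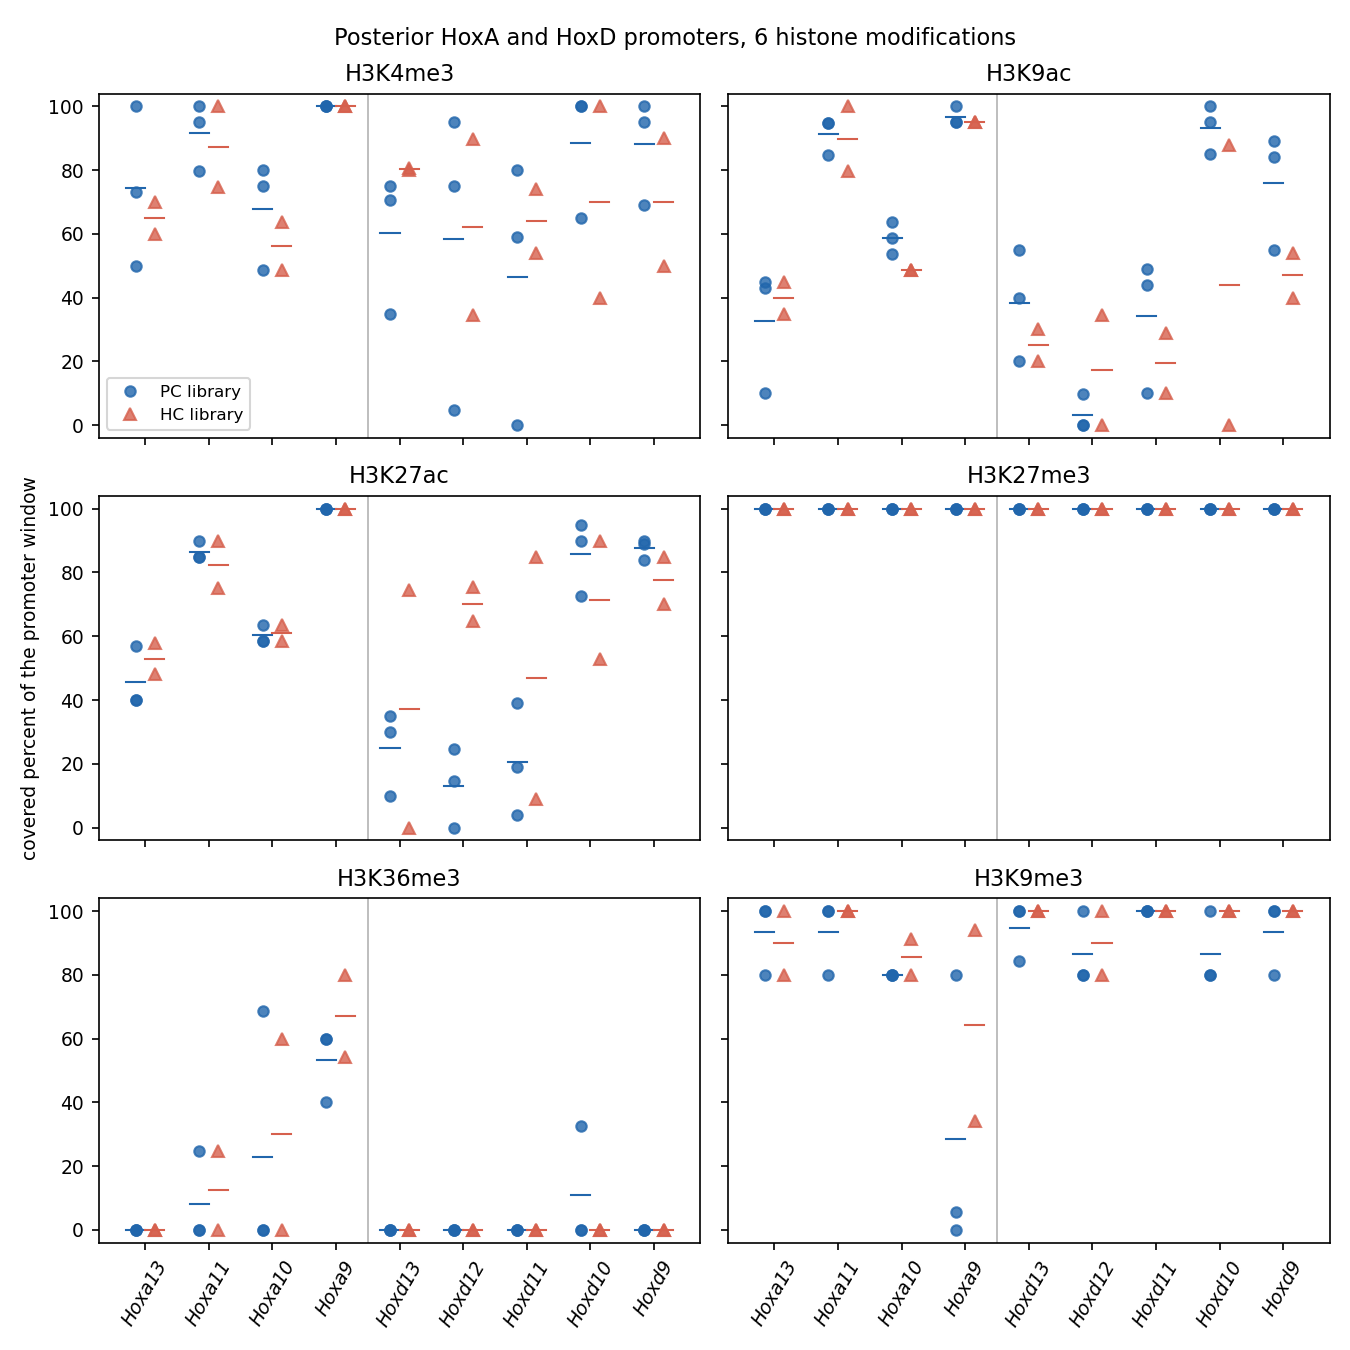
Covered percent of the promoter window (y axis) for each of 6 marks in the 9 posterior genes, in cluster order from group 13 to group 9. Blue circles are the 3 PC libraries, red triangles the 2 HC libraries, and short lines the group means. H3K27me3 is at 100% throughout, and the H3K27ac values of Hoxd12 do not overlap between the groups, with PC at 0 to 24.7% and HC at 64.7 and 75.3%.

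The members were next set beside other Polycomb promoters. There were 980 promoters covered 100% by H3K27me3 in all 5 libraries, and 890 of these also held H3K4me3 in all 5. Over the 890, the median of the mean coverage was 49.1% for H3K4me3, 11.997% for H3K9ac and 17.5% for H3K27ac, and the medians over the 9 members were 70.6, 54.7 and 60.7%. For H3K27ac, 98.2% of the 890 lay below Hoxa11, 98.0% below Hoxd9, 91.7% below Hoxa10, 73.7% below Hoxd12 and 66.6% below Hoxd13. For H3K9ac, 42.8% lay below Hoxd12, whose mean of 8.88% was under the median, and for H3K4me3 60.1% lay below Hoxd11. Other Hox genes were covered more for H3K27ac in PC, with a median of PC means of 93.4% in 11 anterior HoxA and HoxD genes. It was 85.0% in 10 HoxB genes and 71.0% in 9 HoxC genes, beside 60.3% in the members. In HC the order turned, with medians of HC means of 57.9, 56.8 and 57.5% in these lists and 69.995% in the members. The members' HC median is the value of Hoxd12, whose PC mean was 13.1%, and the median of the members' differences was 0.833 points. Lists were not brought to equal length for these medians. The members are themselves within the 890, and these shares are a description with no test. In these pooled cells, alleles or cells with H3K27me3 and others with acetylation cannot be told apart from both marks on one allele.

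Among the members, H3K36me3, the mark of transcribed bodies, lay mainly at Hoxa9 and Hoxa10. It ran on beyond the members, over 15.4 to 100% of the space between Hoxa7 and Hoxa9. The Hoxa9 body was covered 77.3, 39.9 and 62.6% in PC replicates 4, 5 and 6 and 62.6 and 81.3% in HC replicates 5 and 7. The Hoxa10 body held 49.7, 0 and 74.6% in PC and 49.7 and 82.9% in HC. Both genes were covered in both cell types, and PC replicate 5 was the lowest at each. The Hoxa11 body held 51.2% in PC replicate 6, 72.7% in HC replicate 7 and 0 in the other libraries. Outside HoxA, Hoxd10 held 22.2% in PC replicate 6 alone, and the bodies of Hoxa13, Hoxd9, Hoxd11, Hoxd12 and Hoxd13 were at 0 in all 5 libraries. The space between Hoxa11 and Hoxa13 held 18.4% in PC replicate 5 alone. Among the 890 promoters above, 1.69% held H3K36me3 in all 5 libraries, and Hoxa9 was the one member whose promoter did.

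H3K9me3 was called over most of the posterior genes, with Hoxa9 as the exception. Mean promoter coverage over 5 libraries was 82.3% at Hoxa10 and 88.0 to 100% at the other 7 genes. At Hoxa9 it was 0, 80.0 and 5.77% in PC replicates 2, 3 and 6 and 94.2 and 34.2% in HC replicates 2 and 5, the widest spread of any member for this mark. The median over the 890 promoters was 57.3%, and 30.9% of them were at least 50% covered in all 5 libraries, as were 8 of the 9 members. Promoters outside full H3K27me3 differed, with H3K9me3 in all 5 libraries at 3.33% of 20907 against 45.2% of the 980. Counted in steps of 200 bp, 60 of the 161 steps of the posterior HoxD span held H3K4me3 and H3K9me3 together in both HC libraries of each mark, and 44 did in all 3 PC libraries of each. In HoxA such steps numbered 69 of 190 in HC and 57 in PC. The H3K9me3 grid is 800 bp wide, so overlap finer than that is not resolved.

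**Figure D3:**
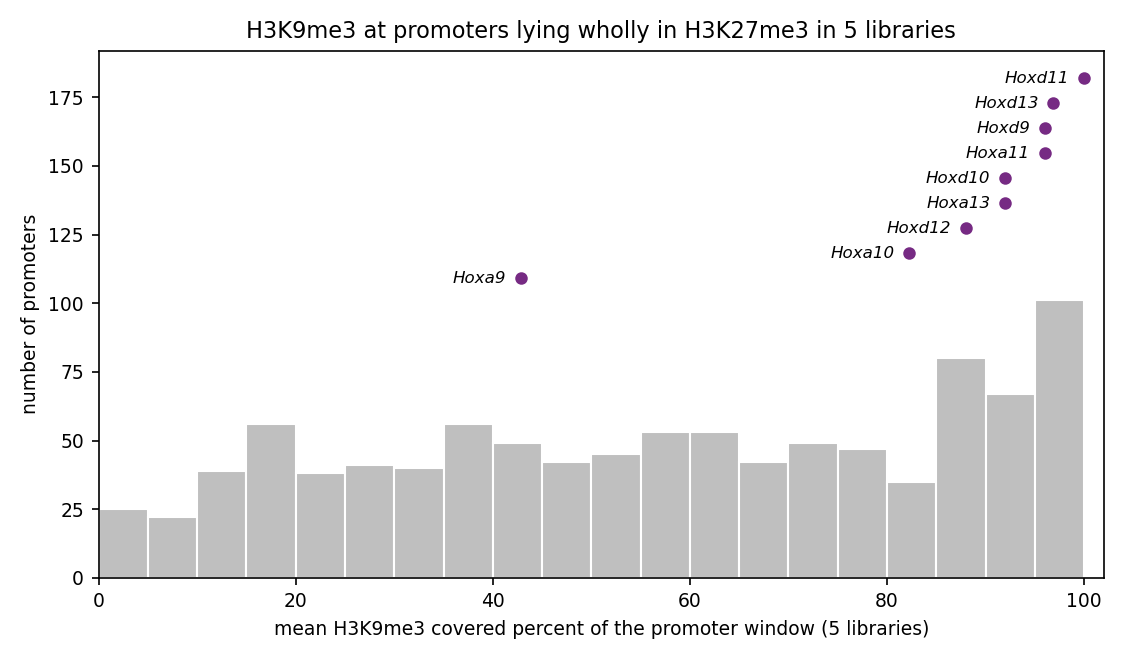
Number of promoters (y axis) by mean H3K9me3 covered percent over 5 libraries (x axis, bars 5 percentage points wide) among the 980 promoters wholly inside H3K27me3. Points mark the 9 members, placed at their x value and stacked for legibility, with Hoxa9 at 42.8% and the other 8 from 82.3 to 100%.

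Paralogues are genes of the same group number in the 2 clusters. Hoxa9 exceeded Hoxd9 for H3K27ac and H3K9ac at the promoter in 5 of 5 libraries, by a mean of 16.4 ± 8.03 and 31.6 ± 20.1 percentage points (SD over 5 libraries). For H3K9me3 Hoxd9 was the higher in 5 of 5, by 53.2 ± 39.2 points. Hoxa11 exceeded Hoxd11 for H3K9ac in 5 of 5 libraries, by 62.4 ± 23.6 points, and for H3K4me3 in 5 of 5, by 36.5 ± 24.99 points, at the upstream start of Hoxd11. At its second start Hoxd11 had means of 85.0% for H3K4me3 and 57.995% for H3K9ac, beside 89.9 and 90.8% at Hoxa11, and over the body Hoxd11 had the higher H3K4me3 in 4 of 5 libraries. Group 13 did not separate at the promoter, where Hoxa13 was above Hoxd13 for H3K9ac in 3 of 5 libraries. Over the bodies, the H3K27ac of Hoxa13 exceeded that of Hoxd13 in 5 of 5. In group 10 the promoter and the body went opposite ways for H3K27ac, with Hoxd10 higher at the promoter in 4 of 5 libraries and Hoxa10 higher over the body in 5 of 5. The second start of Hoxa10 lies within its body.

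**Figure D4:**
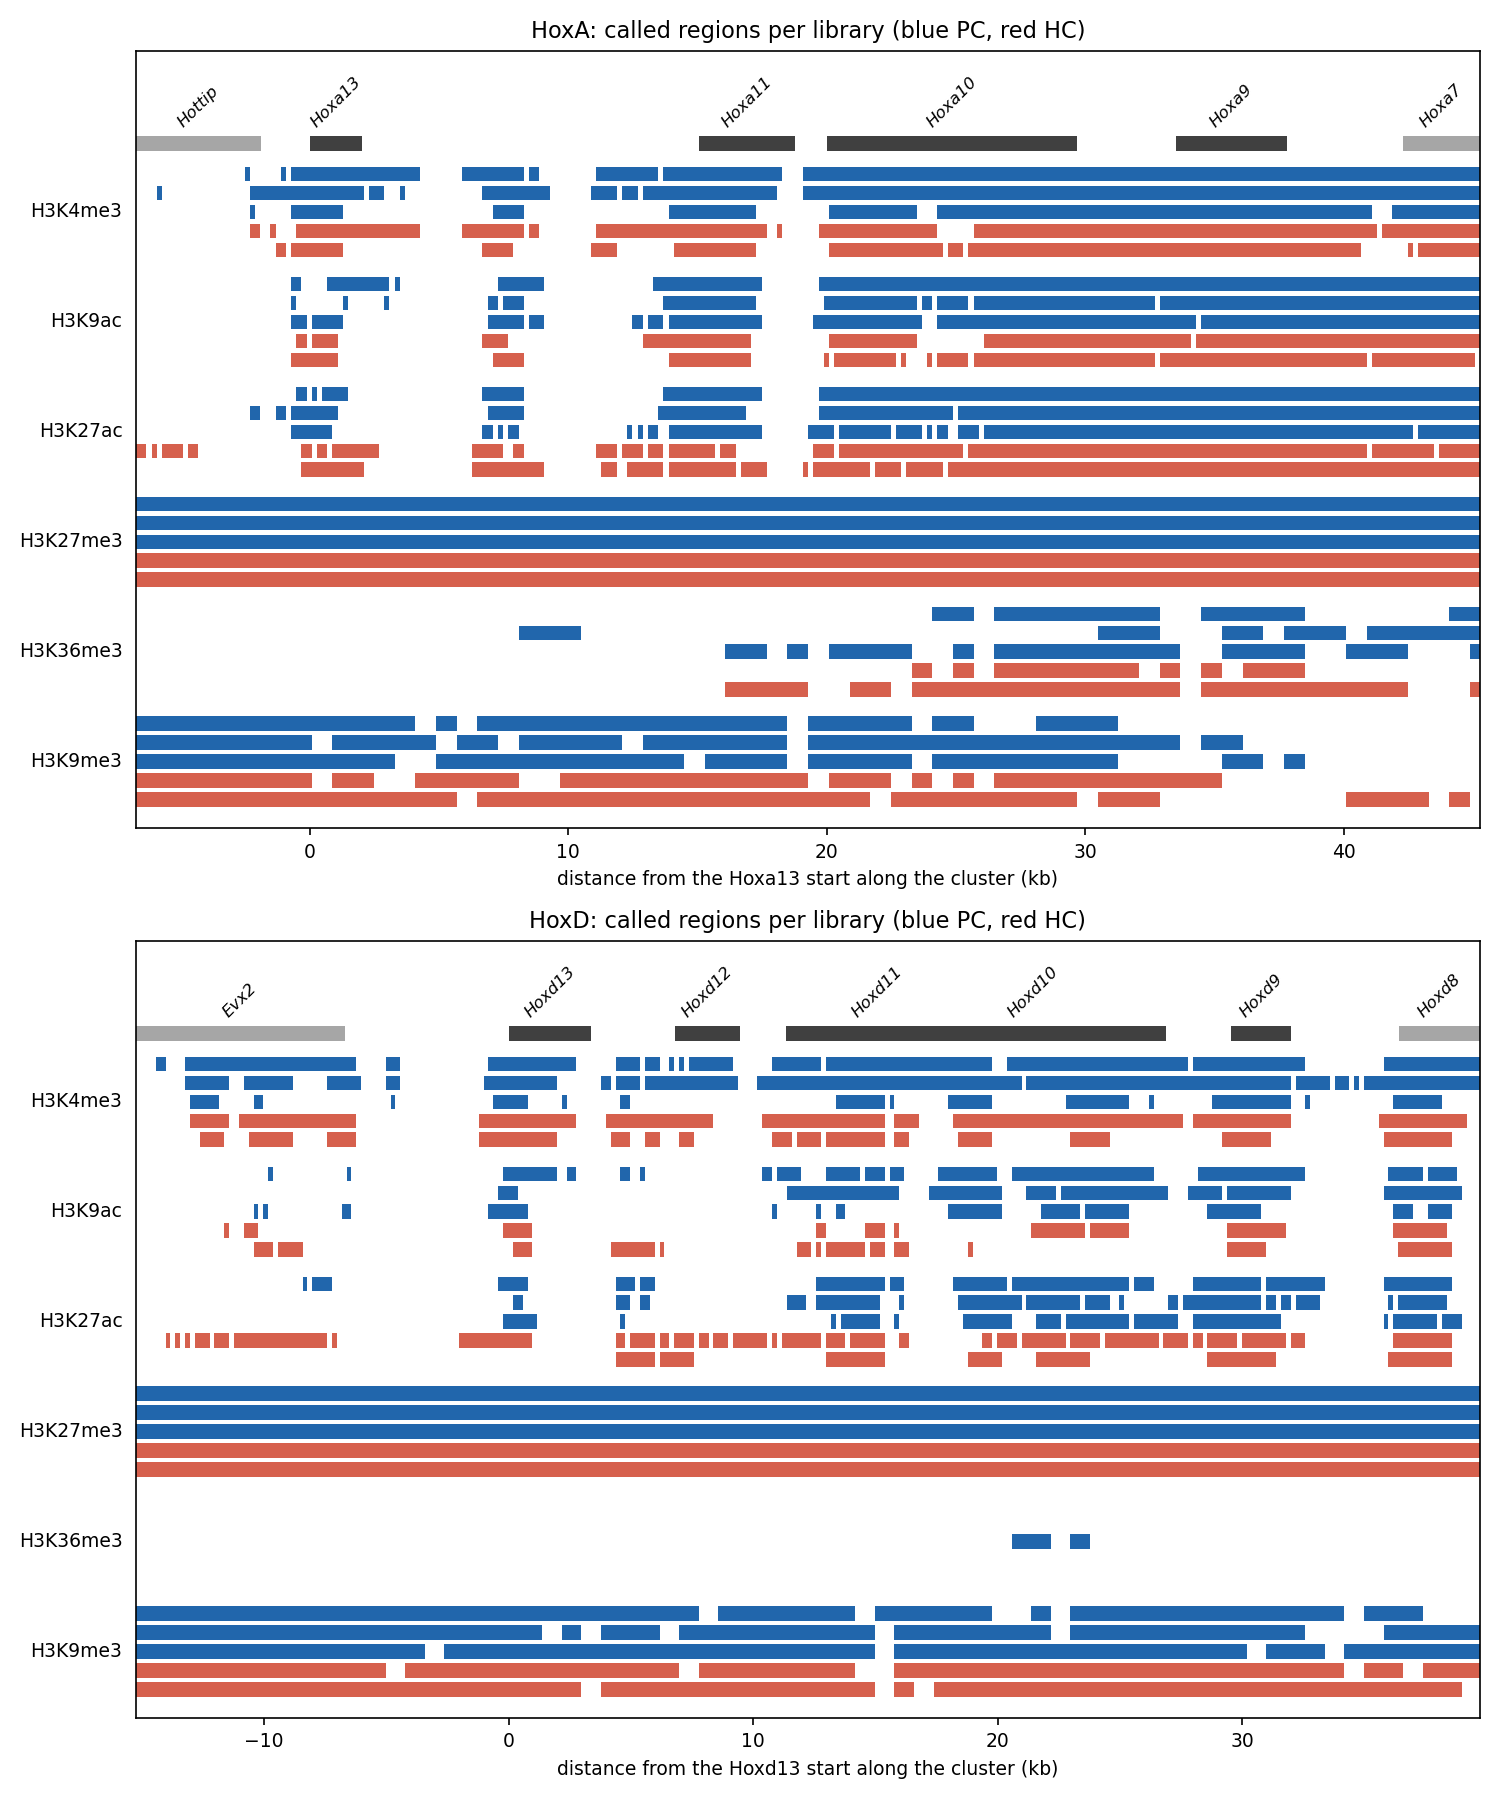
Called regions along the posterior HoxA (upper) and HoxD (lower) genes, against distance in kb from the start of Hoxa13 or Hoxd13. Each row is 1 library, grouped by mark, with 3 PC rows in blue above 2 HC rows in red, both in order of replicate number, and members in black. H3K27me3 fills all of its rows, and most H3K36me3 lies from Hoxa10 through Hoxa9 to Hoxa7.

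The PC to HC comparison asked whether the marks on these genes change as the cells enlarge. With limma (a moderated linear model, Benjamini-Hochberg adjusted over all genes tested, threshold 0.05) none of the 9 promoters was called for H3K4me3, H3K9ac, H3K27ac or H3K27me3. The same test called 0.00704% of 14197 genes for H3K4me3, 0.00741% of 13504 for H3K9ac, 0.0144% of 13883 for H3K27ac and 4.06% of 4996 for H3K27me3. For gene bodies none of the 3 members that could be tested for H3K36me3 (Hoxa9, Hoxa10 and Hoxa11) and none of 9 for H3K9me3 was called, and limma called 0% of 13688 and 0% of 10547 genes for these marks. At an unadjusted p under 0.05 it marked 381 genes as higher and 481 as lower in HC for H3K36me3, and 101 and 633 for H3K9me3. By direction, limma called 3.46% of genes as higher in HC for H3K27me3. Libraries of the 2 groups did not overlap at 7.14% of genes for H3K4me3, 14.6% for H3K9ac (4.37% higher in HC), 18.9% for H3K27ac and 20.4% for H3K27me3 (15.2% higher and 5.16% lower), and at 17.2% for H3K36me3 (8.19% higher) and 26.5% for H3K9me3. No member was separated for H3K27me3 or H3K36me3. Among the members, 1 passed the unadjusted threshold for H3K27ac (Hoxd12, higher in HC), 1 for H3K9ac (Hoxd9, lower in HC) and 0 for the other marks. Over all genes tested, 8.28% passed it for H3K27ac (377 of 13883 higher in HC). For H3K9ac 5.66% did (517 of 13504 lower in HC).

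Of the members, Hoxd12 had the largest H3K27ac difference between HC and PC in the lists as deposited. Its promoter was 24.7, 14.7 and 0% covered in PC replicates 3, 5 and 8 and 75.3 and 64.7% in HC replicates 5 and 7. The groups did not overlap. With the shortest regions left out until every H3K27ac list had equal autosomal length, the window was at 0% in all 3 PC libraries and in HC replicate 7 and at 75.3% in HC replicate 5, whose list that step leaves as it is. The separation then rested on 1 library, and the gene could not be fitted. In the lists as deposited the difference was 56.9 percentage points (SE 9.05, 95% interval 35.6 to 78.1, adjusted p = 0.190 with limma), so it did not pass over all genes. The same HC libraries held the higher muscle marker sums for H3K27ac given above (64.7 and 191), whose part in this difference was not tested. It was the one member whose H3K27ac libraries were separated upward, and 6.35% of all genes tested were. The Hoxd12 body held 0% in all 3 PC libraries and 77.7 and 29.3% in HC, and the space between Hoxd13 and Hoxd12 held 41.1, 29.3 and 5.87% in PC and 53.2 and 64.9% in HC. Most of the body and most of the space lie inside the promoter window, so these values share bases with it. The authors' deposited regions per cell type were drawn from these same libraries and are not separate evidence. In them H3K27ac covers 0% of this promoter window in PC and 69.7% in HC. The H3K4me3 of Hoxd12 differed by 3.95 points (95% interval -53.0 to 60.9), too wide to say whether it moved with the acetylation.

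H3K9ac at Hoxd9 and Hoxd10 went the other way. Hoxd9 was covered 84.1, 89.1 and 55.0% in PC replicates 1, 2 and 3 and 54.1 and 40.0% in HC replicates 2 and 3. The groups did not overlap, by a margin of less than 1 step of the 200 bp grid, and the difference was -29.0 points (SE 11.1, adjusted p = 0.819 with limma). Hoxd10 was covered 100, 95 and 85.0% in PC and 87.7 and 0% in HC. Its difference of -49.5 points (SE 22.1, adjusted p = 0.874) was set by HC replicate 3, and without that library it was -5.60. The space between Hoxd10 and Hoxd9 held 51.3, 62.3 and 36.2% in PC against 6.10% in both HC libraries. Most of this space lies inside the Hoxd9 promoter window, so it is not separate evidence. Over the gene body the H3K9ac of Hoxd10 did not overlap, at 76.9, 78.5 and 51.7% in PC and 35.1 and 4.87% in HC. The bodies of Hoxa10 (93.8 to 100% in PC, 72.5 and 83.4% in HC) and Hoxa11 (59.6 to 65.0% and 54.2%) were also separated downward. The share of all gene bodies separated for H3K9ac was not computed. The other member with a separated H3K9ac promoter was Hoxa10, with 53.7 to 63.7% in PC and 48.7% in both HC libraries, which makes 2 of 9 members lower in HC where 10.3% of all genes tested were. H3K27ac at the same promoters differed by -10.2 points at Hoxd9 (95% interval -25.9 to 5.48) and -14.5 at Hoxd10 (-42.8 to 13.7).

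For the remaining marks, Hoxd13 had H3K4me3 over 70.6, 74.98 and 34.99% in PC and 80.6 and 80.0% in HC. This is 1 of 9 members separated upward, where 3.07% of all genes were, and the difference of 20.1 points did not pass (adjusted p = 1.0 with limma). For H3K9me3 the body of Hoxa11 was separated upward (86.3 to 92.0% in PC, 100% in both HC libraries) and that of Hoxd11 downward (89.3% in all 3 PC, 78.5% in both HC). Over all genes 2.43% were separated upward and 24.1% downward for that mark. The members' median difference was -4.21 points for H3K4me3, -10.0 for H3K9ac and 0.833 for H3K27ac, beside -0.833, -1.91 and -2.50 over all genes tested. In these bulk samples fewer cells carrying a mark and less of the mark per cell cannot be told apart.

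Over whole spans no difference passed the test, and 3 of 12 values were separated between the groups. The share of separated spans of this size over the genome was not computed. At single promoters 18.9% of genes were separated for H3K27ac and 14.6% for H3K9ac. The posterior HoxA span, 37784 bp from Hoxa13 to Hoxa9, had H3K27ac over 65.4, 62.9 and 61.9% in PC and 69.8 and 75.1% in HC, with no overlap. The mean difference was 9.07 points (exact permutation test over libraries, two-sided p = 0.1, the smallest that 3 against 2 allows, adjusted p = 0.8 over 12 span values). H3K9ac over the same span was 70.7, 59.0 and 67.0% in PC and 55.9 and 57.1% in HC (exact p = 0.2, adjusted p = 0.8). Acetylation at lysine 27 and at lysine 9 thus had opposite signs in HoxA, each beyond the overlap of the libraries, where the test could pass neither. The posterior HoxD span, 31984 bp, had H3K9ac over 59.98, 54.95 and 29.3% in PC and 26.8 and 25.6% in HC, with no overlap and a difference of -21.9 points (exact p = 0.2, adjusted p = 0.8). Its H3K27ac was 53.7, 48.1 and 44.9% in PC and 66.2 and 36.9% in HC, where the HC libraries lay on both sides of PC.

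Most of the HoxA gain in H3K27ac lay between Hoxa11 and Hoxa13. This space of 13042 bp was 22.9% covered in each of the 3 PC libraries and 43.3 and 46.3% in HC, a difference of 21.9 points with no overlap. The body of Hoxa13 was covered 59.2, 53.3 and 43.4% in PC and 80.3 and 100% in HC, also with no overlap. How often spaces or gene bodies over the genome were separated for H3K27ac was not computed. At promoters 18.9% of genes tested were. The antisense transcript Hoxa11os, which overlaps the Hoxa11 start and lies mostly in this space, was covered 43.3, 47.7 and 56.5% in PC and 86.7 and 83.01% in HC. H3K9ac over Hoxa11os did not separate, at 43.3 to 60.9% in PC and 60.9 and 38.8% in HC. Hottip, a noncoding gene beyond Hoxa13 known in human cells to maintain the activity of posterior HoxA genes, held H3K9me3 and H3K27me3 over 100% and H3K9ac over 0% in every library. Its H3K27ac was 0, 8.28 and 0% in PC and 37.3 and 0% in HC. Mir196b was 100% covered by each of the 6 marks in all 30 libraries. Hoxd11 and Hoxd10 have no space between them, since their annotated entries overlap by 2744 bp, and their body values share those bases.

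The gene deserts beside HoxD held less H3K27ac in HC. The side beyond Evx2, which contains the digit enhancers of HoxD, had 1.95, 2.78 and 3.20% of its 800 kb covered in PC replicates 3, 5 and 8 and 1.25 and 1.2% in HC replicates 5 and 7. The groups did not overlap, and the difference was -1.42 points (exact permutation p = 0.2, two-sided, adjusted p = 0.4 over 2 sides). This test cannot give p under 0.1, so neither side could pass. The side beyond Hoxd1, which contains the forearm enhancers, had 2.95, 1.53 and 5.23% in PC and 0.625 and 2.05% in HC, with overlap (exact p = 0.4, adjusted p = 0.4). All autosomes together were 2.79 to 3.92% covered in PC and 1.82 and 3.66% in HC. Divided by that value, the Evx2 side was 0.497 to 0.996 in PC and 0.686 and 0.328 in HC, and these ranges overlap. With the lists brought to equal autosomal length the difference was -0.363 points beside Evx2 and -0.225 beside Hoxd1.

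Beside Evx2 the largest separated steps lay from 300 to 500 kb away. From 400 to 500 kb the coverage was 3.4, 6.6 and 7.61% in PC and 1.8 and 2.0% in HC, and from 300 to 400 kb it was 4.4, 4.0 and 6.0% in PC and 0 and 0.6% in HC. The noncoding genes Gm31534, Gm31731 and 4930441J16Rik lie there. The nearest 100 kb, which holds part of Lnpk, overlapped between groups at 2.60 to 4.80% in PC and 3.40 and 2.20% in HC. The step from 500 to 600 kb was separated at a lower level, with 0.4 to 1.79% in PC and 0 in both HC libraries. Beside Hoxd1 the steps from 400 to 500, from 500 to 600 and from 700 to 800 kb were separated, the first with 4.0 to 6.60% in PC and 0.2 and 2.60% in HC. The values of the steps were not divided by list length. How often 100 kb steps over the autosomes were separated was not computed.

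**Figure D5:**
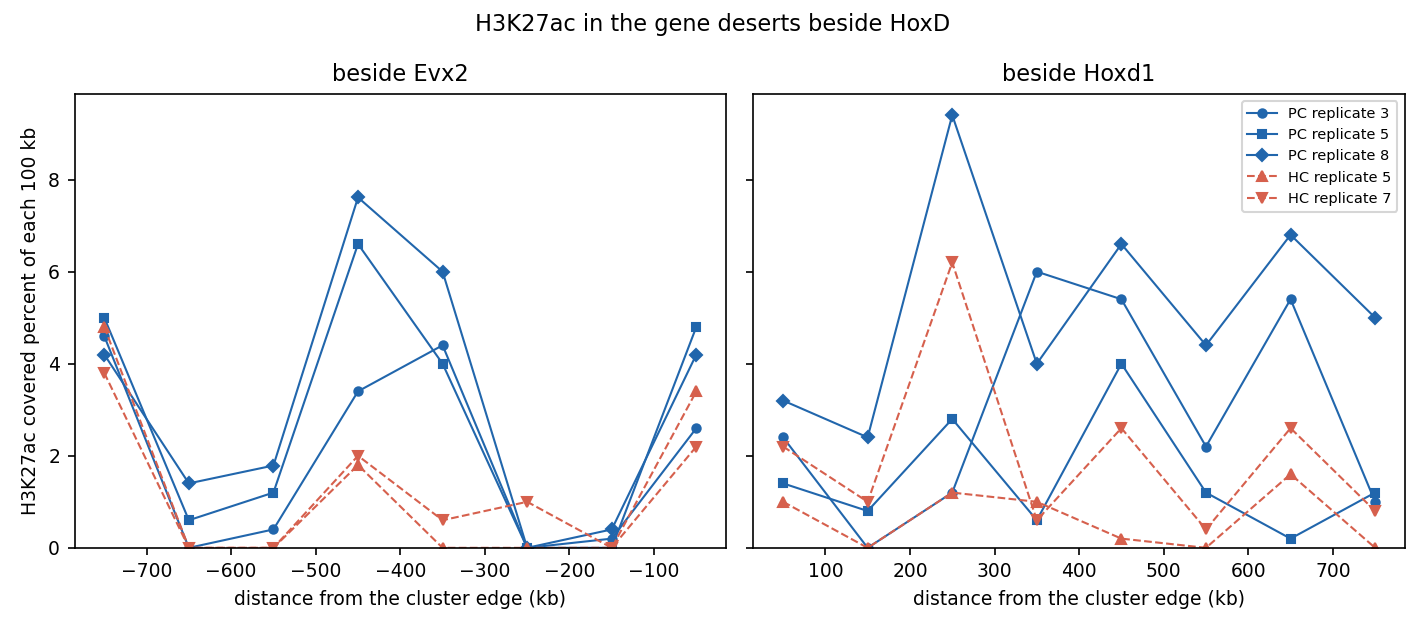
H3K27ac covered percent of each 100 kb (y axis) against distance in kb from the outer end of Evx2 (left, negative) and of Hoxd1 (right). Solid blue lines are the 3 PC libraries and dashed red lines the 2 HC libraries. Between 300 and 500 kb beside Evx2 the PC libraries reach 3.40 to 7.61% and the HC libraries stay at 0 to 2.0%.

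H3K27ac regions were merged across libraries, those within 2 kb of a gene end were set aside, and the rest were sorted by the libraries that held them. Beside Evx2, 3 of 38 (7.89%) were found in every PC list but in no HC list, and beside Hoxd1 3 of 84 (3.57%) were, against 2.15% of 119741 on the autosomes. Regions in both HC and no PC library numbered 0 on each side, against 1.05%. Regions in all 5 libraries numbered 0 beside Evx2 and 1 beside Hoxd1, against 4.02%. The PC regions beside Evx2 lay 31.8, 388 and 465 kb from the gene and measured 2800, 2400 and 1400 bp. These counts are small, and the labels' lists give no score to weight them.

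Other Hox genes and limb regulators gave 1 call in all, for a mark with 4.06% of all genes called. Among 11 anterior HoxA and HoxD genes, 10 HoxB genes, 9 HoxC genes and 24 limb partners and upstream factors (among them Meis1, Hand2, Shh, Gli3 and Tbx5), limma called Hoxa4, a cervical patterning gene, for H3K27me3. Its promoter was at 0% in all 3 PC libraries and 100 and 86.7% in HC (difference 93.4 points, SE 7.01, adjusted p = 0.0182). It lay outside the H3K27me3 region of the posterior genes in each PC library and in HC replicate 3, and inside it in HC replicate 2. Full H3K27me3 in all 5 libraries was found at 9 of 9 posterior promoters, 6 of 11 anterior, 6 of 10 HoxB, 7 of 9 HoxC and 11 of 24 limb regulators. The median of PC means for H3K9me3 over the gene body was 88.1% in the posterior list, 13.48% in the anterior list, 20.3% in HoxB, 60.8% in HoxC and 13.4% in the limb list. The median of HC means was 85.1% in the posterior list and 68.95% in the anterior list, a smaller gap, and 32.4, 50 and 9.497% in the others in the same order. Outside the 4 Hox clusters, the genes with promoter values nearest to the members' mean over 20 libraries of H3K4me3, H3K9ac, H3K27ac and H3K27me3 included Tbx18, Zbtb7c, Npas2 and Prox1, at mean absolute differences of 6.08, 6.45, 6.56 and 6.77 percentage points. Among the members themselves this difference ran from 5.65 at Hoxa10 to 26.6 at Hoxa9.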

How the data were processed

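Per the labels and file headers, the authors deposited 1 list of regions per library and 1 per mark and cell type, for mm10, with a start and an end and no score or read count. The submitters' processing notes name FastQC and Picard. For the aligner, the region caller and the use of IgG, the sources used here give nothing. Region edges fell on grids of 200 bp (H3K4me3, H3K9ac, H3K27ac) or 800 bp. Genes, starts and sequences came from RefSeq GRCm38.p6. Promoter windows used the listed start that lies furthest upstream (17492 of 21887 genes), otherwise the one gene end with H3K4me3 (2332). Both ends were used where both or neither had H3K4me3 (2063). Covered percents were tested with limma 3.58.1 (R 4.3.3, trend and robust) on genes covered in at least 2 libraries, and single values with exact permutation tests. Interval and limma steps were tested on simulated data. Named genes are the members, their neighbours and intervening noncoding genes, called members of the fixed lists, desert genes and the 5 most similar genes, of which 1 is not reported here. The members and lists were chosen with earlier results of these data known. Alternatives covered equal list length, a stricter list, 1 kb windows, both gene ends, a log2 scale with pseudocount 1, no filter, plain limma settings, 400 kb deserts, gene ends left out, the replicate block and each library left out.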

Additional observations from a re-analysis of the deposited data

How the results depend on the processing

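Depth is unknown, so list length stands in for it, and 3 against 2 libraries limit all tests. No member was called for H3K4me3, H3K27me3, H3K36me3 or H3K9me3 under any alternative run. For H3K9ac 1 member was called with 1 kb windows (Hoxd9, -37.9 points, adjusted p = 0.0475 with limma) and 1 without HC replicate 2 (Hoxd10, -93.3 points, adjusted p = 0.0253), so leaving out libraries gave 0 to 1. That HC group is then 1 library, at 0%, which is assumed to vary like the PC libraries. For H3K27ac 1 member, Hoxd12, was called with 1 kb windows (71.6 points, adjusted p = 0.0270 with limma). The same gene was called with no filter (adjusted p = 0.00472 with limma). These settings also called more of all genes, with 1 kb windows at 289 for H3K9ac and 193 for H3K27ac. No filter gave 58 for H3K27ac, beside 2 in the reported fit. With equal autosomal covered length Hoxd12 was covered in 1 library for H3K27ac and 1 for H3K9ac and could not be fitted. The fit for H3K27me3 with no filter could not be made, since most variances were 0. Over all genes the calls across alternatives ran from 0 to 158 for H3K4me3 (1 in the reported fit), 0 to 289 for H3K9ac (1), 0 to 193 for H3K27ac (2), 0 to 49 for H3K36me3 (0), 0 to 392 for H3K9me3 (0) and 121 to 457 for H3K27me3 (203). H3K27ac over the spans moved when libraries were left out, from 6.42 to 11.7 points in HoxA and from -12.0 (without HC replicate 5) to 17.3 (without HC replicate 7) in HoxD. With equal autosomal covered length the desert differences shrank to -0.363 and -0.225. H3K9ac alone shares 2 replicate numbers between the groups, and with the replicate block 0 members and 0 genes were called. The deviations of the same numbers correlated at -0.0219 and 0.0601 over 13504 genes, and the cells come from different embryos, so the numbers do not pair the libraries. Of 542 alternative values of single members, 506 counted as unchanged, 32 moved by more than the spread and 4 became called, and the causes were not tested. Unchanged values kept their call and moved by no more than the spread, or on the log2 scale kept call and direction. They include the H3K27me3 values of all 9 members, which stayed at a difference of 0 with the windows full, so the count overstates stability.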
